A study of Homo sapiens with 12 samples.

Results

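Allopregnanolone (3α-THP) was compared with its parent steroid progesterone (P4) in U87 cells, an established human glioblastoma line, after 72 h at the same dose of 10 nM. The members were all rows of the deposited expression table that carry a gene symbol, 21214 of 33297 probe groups of the Affymetrix Human Gene 1.0 ST array (transcript clusters), and the 6 arrays titled 3α-THP or P4 were 6 of the 12 arrays in the series. The 3α-THP group was U87 cells given 3α-THP at 10 nM for 72 h, with 3 arrays, and the P4 group was U87 cells given P4 at 10 nM for 72 h, with 3 arrays. The other 6 arrays were 3 of F, the 5α-reductase inhibitor finasteride at 100 nM, and 3 of V, the vehicle dimethyl sulfoxide, for which the labels give 2 different concentrations. All cells had been moved, the day before treatment, to medium without phenol red and with serum stripped of steroids by charcoal. The titles number the arrays of each treatment 1, 2 and 3 as biological replicates of 1 cell line, so the spread is that between cultures of U87 and not between tumors. One pair of compounds was compared, at matched dose and time.

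P4 is turned into 3α-THP by a pair of reductions. 5α-Reductase removes the double bond of ring A to give dihydroprogesterone, and 3α-hydroxysteroid dehydrogenases of the AKR1C family then turn its ring A ketone into a hydroxyl group. P4 acts mainly through the nuclear progesterone receptor, a transcription factor, whereas 3α-THP binds that receptor poorly and is best known as a positive modulator of the GABA-A receptor, a chloride channel of neurons. Both steroids also bind membrane progesterone receptors of the PAQR family.

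The signals were log2 values between 1.25 and 14.1, and the array medians over the 21214 clusters lay between 6.35 and 6.40, so a log2 difference of 1 is a doubling of signal and one of 0.585 a fold change of 1.5. The 9 measured U87 markers averaged between 5.96 and 13.2 over all arrays. Of these, VIM averaged 12.5 and FN1 13.1 on the 3α-THP arrays, against 12.5 and 13.2 on the P4 arrays. The 3 genes listed as deleted in U87 averaged between 3.95 and 5.61 over all arrays. Of 32 measured markers of leukocytes, endothelium, neurons, oligodendrocytes and epithelium, none passed the threshold used below. The neuronal vesicle gene SYT1 had the largest difference, 0.35 (95% interval 0.09 to 0.6). That is a statement about differences and not about absence. The brightest marker averaged 6.73 for leukocytes, 6.48 for endothelium, 8.62 for neurons and oligodendrocytes and 6.35 for epithelium, each above the deleted genes. Signal of 1 culture is a mean over its cells, so fewer cells in a state and less RNA per cell cannot be told apart.

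Past the fold threshold, the comparison was lopsided. With calls made as in the methods, on a fold above 1.5 together with an unadjusted p below 0.05, 47 clusters (0.222% of those tested) were higher and 6 (0.0283%) lower with 3α-THP than with P4 in a fit that did not pair the arrays. The median log2 fold change of all clusters was −0.01, and 44.8% were above 0. The log2 fold changes of the 47 ran between 0.59 and 1.35, with a median of 0.73. On 29 of the 47 the lowest 3α-THP array lay above the highest P4 array, a separation that 3.13% of all clusters showed (8.22% in either direction), and 46 of the 47 were positive in each of the 3 pairs of arrays with the same replicate number, as were 10.9% of all clusters. Both measures come from the contrast that chose the 47 and are given as a description. UACA, NIPBL and ETAA1 lay just inside the fold threshold at 0.59 each, and N4BP2, CASP8AP2 and CEP152 just outside it at 0.58 each.

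Taking the replicate number as a block gave 66 calls (0.311%), 59 higher (0.278%) and 7 lower (0.033%), which contained all 53 of the unpaired fit. After Benjamini-Hochberg adjustment over the 21214 clusters, 0 were called in either limma fit of the 12 arrays (lowest adjusted p 0.999 unpaired and 0.236 with the block), although 841 clusters (3.96%) had an unadjusted p under 0.05 in the unpaired fit, 387 higher and 454 lower, while 1909 (9%) did with the block and 1644 (7.75%) did with the block on the 6 arrays of the comparison. The lowest p with the block, 1.11e-05, was that of a cluster shared by the small nucleolar RNA SNORA1 and its host TAF1D, which is named for that after its values were seen. When the block was fitted to the 6 arrays of the 2 treatments alone, the same 66 passed the threshold, and 78 (0.368%) passed the adjusted p, 75 higher (0.354%) and 3 lower (0.0141%). Of these 78, 45 were among the 53 unpaired calls. That count fell to 0 when the deposited values were normalized again by quantiles or by cyclic loess, or when the 3 V or the 3 F arrays were added to the fit, and it was 30, 103 and 156 without the arrays of replicate 1, 2 and 3. The calls below are therefore those of the fold and unadjusted p, unless an adjusted p is given.

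**Figure D1:**
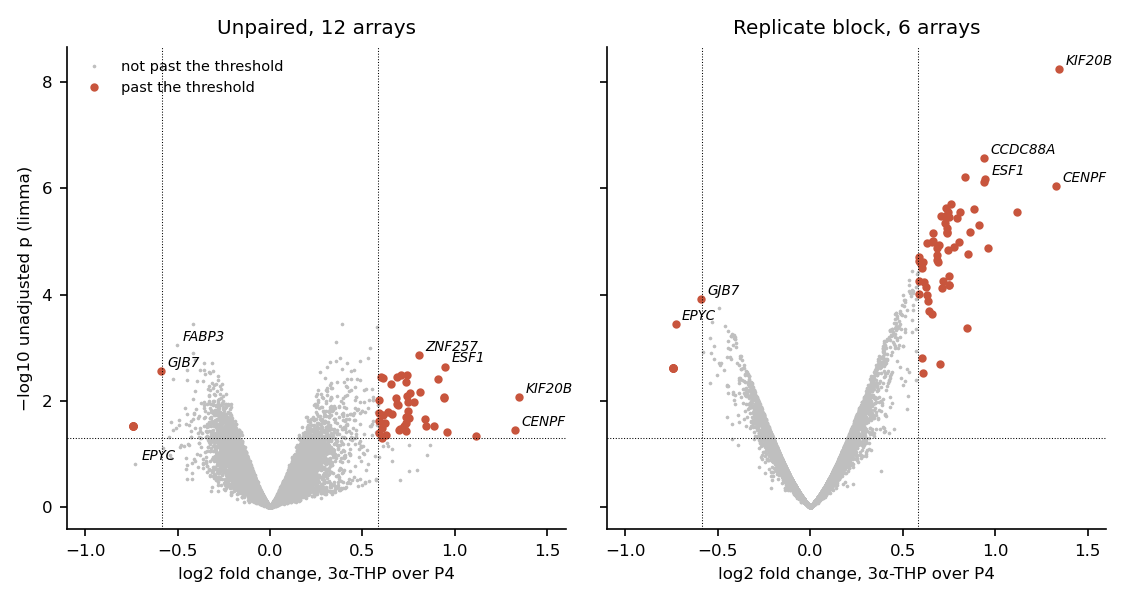
Log2 fold change of 3α-THP over P4 (x axis) against −log10 of the unadjusted limma p (y axis) for the 21214 clusters, unpaired on 12 arrays (left) and with the replicate block on the 6 arrays (right). Dotted lines mark a fold of 1.5 and p of 0.05. Of the red clusters, past both, 47 lie right of 0 and 6 left of it in the unpaired fit, and 59 and 7 in the paired fit.

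The spread within a treatment was large and followed the array. Among the 47 higher clusters, the highest 3α-THP array was replicate 2 in 24 and replicate 3 in 23, and never replicate 1, while the highest P4 array was replicate 3 in 38. The median differences of the 47 were 0.73, 0.95 and 0.50 in the pairs of replicates 1, 2 and 3. The pair of replicate 3 gave the smallest difference in 36 clusters and the pair of replicate 2 the largest in 33. Leaving out 1 array changed the number of calls most for 4 arrays. Omitting replicate 1 of 3α-THP gave 135 calls, with 48 of the 53 among them, and omitting its replicate 3 gave 29, with 21 among them. Omitting replicate 1 of P4 gave 25 calls, with 14 of the 53 among them, and omitting its replicate 3 gave 102, with 49 among them. Without replicate 2 of 3α-THP there were 54 calls, with 36 of the 53 among them. Without replicate 2 of P4 there were 42, with 27 among them.

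The largest differences were in genes of mitosis. KIF20B, a kinesin that works at the central spindle in cytokinesis, read 5.71, 7.42 and 6.96 on the 3α-THP arrays, against 4.65, 5.75 and 5.64 on the P4 arrays, with the values here and below in the order of replicates 1, 2 and 3. Each 3α-THP array was above the P4 array of its own number, but 3α-THP replicate 1 lay within the range of the P4 arrays. The log2 fold change was 1.35 ± 0.43 (SE), a 2.55-fold difference with a 95% interval of 1.33 to 4.88 (unadjusted p = 0.00859). KIF20B also had the lowest adjusted p of the paired limma fit on the 6 arrays, 1.19e-04.

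CENPF, a kinetochore protein that accumulates in G2, read 7.01, 9.41 and 8.35 on the 3α-THP arrays, against 6.21, 7.36 and 7.23 on the P4 arrays. ASPM, a spindle pole protein, read 6.34, 8.43 and 7.59 on the 3α-THP arrays, against 5.73, 6.7 and 6.59 on the P4 arrays. In both the same order held, with 3α-THP replicate 2 highest of the 6 arrays and 3α-THP replicate 1 below 2 of the P4 arrays. Their log2 fold changes were 1.33 ± 0.57 and 1.12 ± 0.51 (SE, unadjusted p = 0.0356 and 0.0467). CENPE, the kinetochore kinesin that carries chromosomes to the spindle equator, read 4.88, 6.81 and 6.05 on the 3α-THP arrays, against 4.46, 5.29 and 5.11 on the P4 arrays, a log2 difference of 0.96 ± 0.42. SGO2, a shugoshin that shields centromeric cohesin, differed by 0.89 ± 0.36, and KIF18A, a kinesin that dampens chromosome movements, by 0.74 ± 0.28. KIF18A was the one mitotic gene of these 6 whose groups did not overlap, at 7.48, 8.32 and 7.93 on the 3α-THP arrays, against 6.75, 7.33 and 7.43 on the P4 arrays.

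The list of 55 genes of G2 and M phase showed how far this held. Of 54 measured, 5 were higher in the unpaired fit (KIF20B, CENPF, ASPM, CENPE and KIF18A), beside 0.222% of all clusters. In this list 0 were lower and 49 did not pass. Lists held only clusters with 1 gene, and GJB7 was the only lower call of that kind in the unpaired fit. A count of 0 lower, here and below, therefore says little about direction. With the block 7 passed, KIF14 and HMMR being added. The median log2 fold change was 0.30, beside −0.01 over all clusters, and 53 of the 54 values were above 0, beside 44.8% of all clusters. In the pairs of replicates 1, 2 and 3 the median of the list was −0.03, 0.69 and 0.35, and the value in pair 1 was that of all clusters there (−0.03). The median was −0.09 without 3α-THP replicate 2 and 0.68 without 3α-THP replicate 1. Genes commonly used as proliferation markers had wide intervals in the unpaired fit, named here after their values were seen: MKI67 differed by 0.28 (95% interval −0.7 to 1.26), TOP2A by 0.43 (−0.53 to 1.4), CCNB1 by 0.47 (−0.5 to 1.44) and CDK1 by 0.49 (−0.47 to 1.45). With the block the list held 28 members at an unadjusted p under 0.05, all with positive values, and 5 without it, beside 9% of all clusters with the block, and these 4 markers were among the 28 (unadjusted p = 0.0458 for MKI67, 0.0133 for TOP2A, 0.00249 for CCNB1 and 0.00318 for CDK1) with no fold over 1.5. In the pair of replicate 1 their 3α-THP and P4 values were close, at 8.0 and 8.02 for MKI67 and 5.28 and 5.3 for CDK1.

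Several cell-cycle genes passed only when arrays were paired by number. KIF14, a kinesin of the midbody, read 5.34, 7.05 and 5.91 on the 3α-THP arrays, against 4.79, 5.72 and 5.19 on the P4 arrays. KNL1, the kinetochore scaffold that recruits checkpoint proteins, read 6.17, 8.08 and 6.91 on the 3α-THP arrays, against 5.63, 6.68 and 6.29 on the P4 arrays. Each 3α-THP array lay above its paired P4 array while the groups overlapped, and the log2 fold changes were 0.87 (unadjusted p = 0.0679 unpaired and 0.000663 with the block) and 0.85 (unadjusted p = 0.103 and 0.00256). HMMR, a spindle-associated hyaluronan receptor, differed by 0.75, FAM111B, a protease of S phase cells, by 0.79, CKAP2L, a mitotic spindle protein, by 0.66, ATAD5, which unloads the sliding clamp PCNA from DNA, by 0.64 and SMC4, a condensin subunit, by 0.61. The non-coding PAX8-AS1 was the most variable of them. It read 5.63, 8.55 and 6.82 on the 3α-THP arrays, against 5.6, 7.0 and 6.29 on the P4 arrays, with nearly equal values in pair 1.

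**Figure D2:**
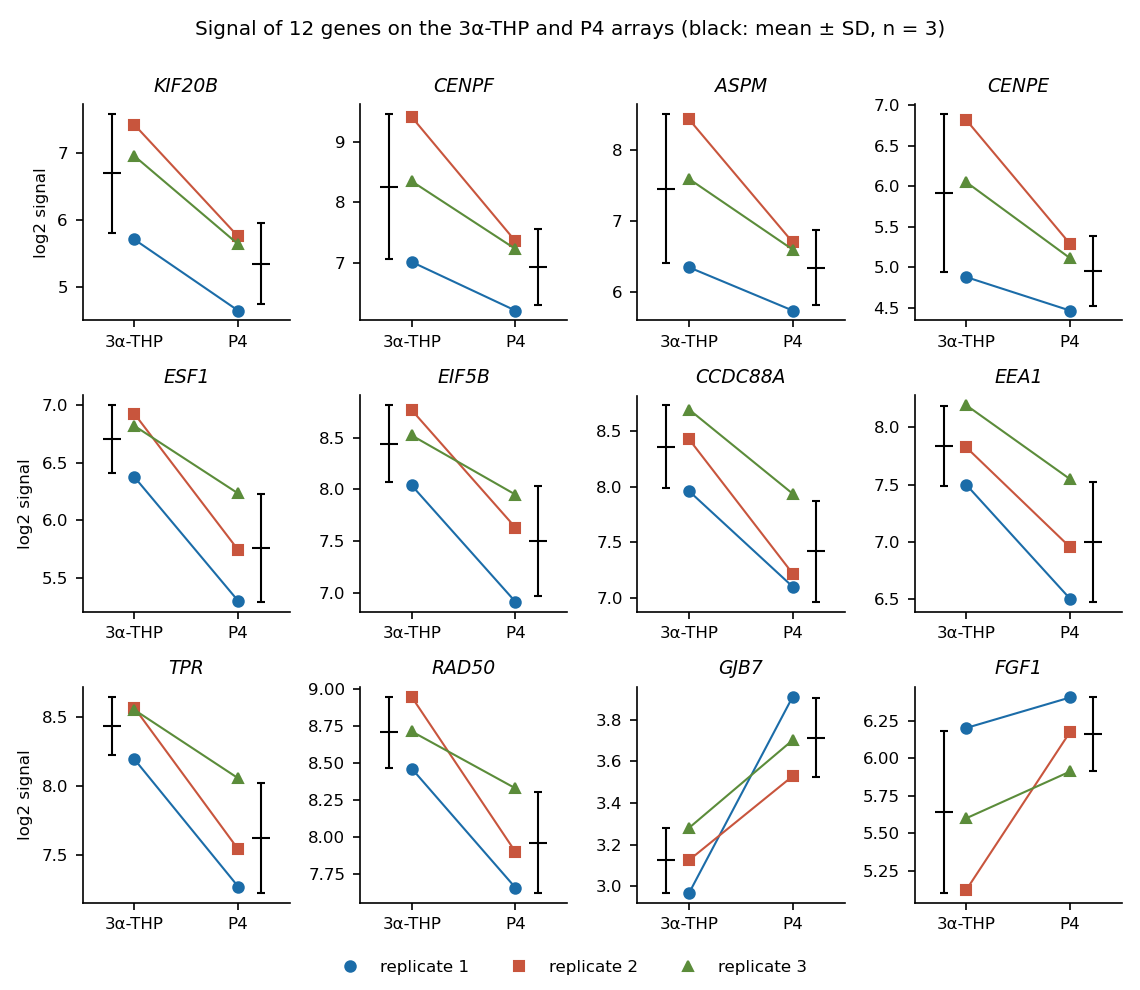
Log2 signal (y axis) of 12 genes on the 3α-THP arrays (left in each panel) and the P4 arrays (right), with lines joining arrays of the same replicate number and black bars for mean ± SD of 3 arrays. KIF20B, CENPF, ASPM and CENPE show 3α-THP replicate 2 at the top, ESF1, EIF5B, CCDC88A, TPR and RAD50 show all 3α-THP arrays above all P4 arrays, and GJB7 runs the other way.

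Promoter sequence was looked at because a cell-cycle element, the CHR (TTTGAA on either strand), sits near the start of many G2 and M genes. RefSeq promoters (GRCh38.p14, windows of equal length around the start) were given for 45 of the 57 named genes higher in the block fit. A CHR was found in 13 of the 45 (28.9%) and in 11.8% of 13769 promoters of tested genes. By list membership it was in 6 of the 7 promoters of called G2 and M genes and in 7 of the 38 others, while 71.1% of the 45 promoters of the whole G2 and M list held it. A CCAAT box (CCAAT on either strand) was in 55.6%, beside 36.4% of all promoters, TGACG, the core of the cAMP response element, in 44.4%, beside 29.9%, and the full palindromic element TGACGTCA, which contains that core, in 1 of the 45 (2.22%), beside 2.69%. TGTTCT, the core hexamer bound by the progesterone and glucocorticoid receptors, was in 2 of the 45 (4.44%), beside 10.7%. TTGCNNAA, a C/EBP motif, was in 4 (8.89%), beside 8.27%, and TTTCCCGC, an E2F motif, in 0, beside 2.27%, both also searched on either strand. These are matches of letters in a window, with no measure of binding. The sequences below are of leading genes and run from 130 bases before to 50 after the start, with the CHR in capitals in the first 4 and the cAMP response element in capitals in CENPE.
KIF20B (chr10:89701460-89701639, forward strand): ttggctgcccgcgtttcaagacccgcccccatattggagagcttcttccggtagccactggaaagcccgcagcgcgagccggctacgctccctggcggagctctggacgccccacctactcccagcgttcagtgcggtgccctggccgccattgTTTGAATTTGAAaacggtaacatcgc
CENPF (chr1:214603065-214603244, forward strand): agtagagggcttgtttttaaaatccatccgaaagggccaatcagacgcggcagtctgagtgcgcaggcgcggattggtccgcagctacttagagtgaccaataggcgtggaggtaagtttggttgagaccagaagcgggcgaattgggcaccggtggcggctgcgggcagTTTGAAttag
KIF18A (chr11:28108107-28108286, reverse strand): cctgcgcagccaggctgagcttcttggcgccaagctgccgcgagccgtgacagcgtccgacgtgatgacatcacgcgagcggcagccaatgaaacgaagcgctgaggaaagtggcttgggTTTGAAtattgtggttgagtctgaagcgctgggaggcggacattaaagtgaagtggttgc
HMMR (chr5:163460502-163460681, forward strand): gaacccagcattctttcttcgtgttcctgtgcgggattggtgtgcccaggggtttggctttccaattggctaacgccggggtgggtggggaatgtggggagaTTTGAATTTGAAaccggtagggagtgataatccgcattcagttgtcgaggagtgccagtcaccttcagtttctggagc
CENPE (chr4:103198294-103198473, reverse strand): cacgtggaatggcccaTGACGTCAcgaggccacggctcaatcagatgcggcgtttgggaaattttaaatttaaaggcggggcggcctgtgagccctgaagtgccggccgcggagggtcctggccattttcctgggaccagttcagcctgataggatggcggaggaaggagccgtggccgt
KIF20B and HMMR each carry the CHR as a tandem pair. In KIF18A and HMMR it lies before the start, and in KIF20B and CENPF after it.

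Genes of chromosome structure and DNA repair were also among the higher clusters. RAD50, the coiled-coil ATPase of the MRN complex that senses double-strand breaks, read 8.46, 8.95 and 8.71 on the 3α-THP arrays, against 7.66, 7.9 and 8.33 on the P4 arrays. The groups did not overlap and the log2 fold change was 0.74 ± 0.21 (unadjusted p = 0.00327). RIF1, which steers the choice of break repair and the timing of replication, read 8.19, 8.49 and 8.52 on the 3α-THP arrays, against 7.45, 7.49 and 8.04 on the P4 arrays, a difference of 0.74 ± 0.24. BOD1L1, which protects stalled replication forks, differed by 0.76 ± 0.24, HMGN5, a nucleosome-binding protein, by 0.66 ± 0.19, and NIPBL, the loader of cohesin, by 0.59 ± 0.23. None of these 3 overlapped between the groups either, as was so for 29 of the 47 higher clusters and 3.13% of all clusters. That separation comes from the contrast that chose them and is a description.

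ATRX, a chromatin remodeler often mutated in lower grade glioma, was measured by 2 clusters. The brighter read 8.48, 8.39 and 8.85 on the 3α-THP arrays, against 7.57, 7.56 and 8.35 on the P4 arrays, a difference of 0.75 ± 0.29, and the other differed by 0.66 and passed only with the block. TPR, the filament protein of the nuclear pore basket, read 8.2, 8.57 and 8.55 on the 3α-THP arrays, against 7.28, 7.54 and 8.06 on the P4 arrays, a difference of 0.81 ± 0.25, while the 48 other measured genes of nuclear pores and transport did not pass and RANBP2 was next at 0.44. The double-strand break list had 1 higher of 39 measured, with a median of 0.16. The condensin and cohesin list had 2 of 33 (SGO2 and NIPBL) with a median of 0.12. The S phase list had 2 of 61 (BOD1L1 and RIF1) with a median of 0.08. The list of chromatin remodelers and scaffolds had 2 of 38 (ATRX and HMGN5) with a median of 0.07. None had a member that was lower past the threshold, which the scarcity of lower calls made likely beforehand. In pair 1 the medians of these 4 lists were at or below 0, the lowest −0.11 in the S phase list.

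A list of 10 genes had been picked for RT-qPCR on the strength of these same arrays, so its direction here is not independent evidence. Of the 10, 5 were higher past the threshold (ESF1, TPR, RAD50, RIF1 and ROCK1), 0 lower, and all 10 values were positive, with a median of 0.61. The remaining 5 were DYNC2H1, a dynein of cilia, at 0.52 (95% interval 0.18 to 0.86), REV3L, a translesion polymerase, at 0.53 (0.15 to 0.92), PCM1, the scaffold of centriolar satellites, at 0.46 (0.13 to 0.79), ROCK2, a kinase of the actin cytoskeleton, at 0.44 (0.01 to 0.87), and CCDC91, a Golgi adaptor, at 0.43 (−0.09 to 0.95). A second cluster of DYNC2H1 gave 0.46. ROCK1, a related kinase, which drives actomyosin contraction, read 8.92, 8.91 and 9.14 on the 3α-THP arrays, against 7.92, 8.26 and 8.73 on the P4 arrays, a difference of 0.69 ± 0.19.

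ESF1, a nucleolar factor for processing of ribosomal RNA, and EIF5B, the GTPase that joins the ribosomal subunits at the start codon, were also higher. ESF1 read 6.37, 6.92 and 6.82 on the 3α-THP arrays, against 5.3, 5.74 and 6.23 on the P4 arrays. The groups did not overlap, and the log2 fold change was 0.95 ± 0.25, a 1.93-fold difference with a 95% interval of 1.33 to 2.80 (unadjusted p = 0.00225). EIF5B read 8.04, 8.77 and 8.52 on the 3α-THP arrays, against 6.92, 7.63 and 7.95 on the P4 arrays, a difference of 0.94 ± 0.31. Of 74 measured nucleolar factors of ribosome biogenesis, ESF1 alone passed, with NVL next by p at 0.27, and of 47 initiation factors EIF5B alone passed, while EIF2AK1, the heme-regulated kinase of eIF2, read 9.05, 8.95 and 8.84 on the 3α-THP arrays, against 9.4, 9.21 and 9.16 on the P4 arrays and did not pass (−0.31, 95% interval −0.51 to −0.11). The medians of the lists were 0.07 and 0.01. The ESF1 promoter is shown with the core of the cAMP response element, here on the opposite strand, in capitals.
ESF1 (chr20:13784870-13785049, reverse strand): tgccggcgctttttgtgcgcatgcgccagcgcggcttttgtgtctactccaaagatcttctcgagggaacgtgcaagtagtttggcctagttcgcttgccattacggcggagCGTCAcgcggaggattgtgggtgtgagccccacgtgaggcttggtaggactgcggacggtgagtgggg
The core lies before the start, and the full element was not found in this window.

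CCDC88A, EEA1 and KTN1 were also among the higher calls. CCDC88A (girdin), which links Akt signaling and G proteins to actin and cell migration, read 7.96, 8.43 and 8.69 on the 3α-THP arrays, against 7.1, 7.22 and 7.94 on the P4 arrays. EEA1, the tether of early endosomes, read 7.5, 7.83 and 8.19 on the 3α-THP arrays, against 6.5, 6.95 and 7.55 on the P4 arrays. KTN1 (kinectin), which anchors kinesin on the endoplasmic reticulum, read 9.48, 9.86 and 9.79 on the 3α-THP arrays, against 8.47, 8.9 and 9.44 on the P4 arrays. P4 replicate 3 was the highest P4 array in each of the 3 genes, and in EEA1 it exceeded 3α-THP replicate 1. The log2 fold changes were 0.94 ± 0.3, 0.84 ± 0.32 and 0.78 ± 0.26 (unadjusted p = 0.00845, 0.0221 and 0.0104).

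Among golgins and trans-Golgi coiled coils, 5 of 21 measured were higher and 0 lower, beside 0.222% of all clusters higher. The list was written with earlier results of these data known, so its count is a description and not independent evidence. They were TRIP11 (0.73 ± 0.31), GOLGA4 (0.73 ± 0.3), GCC2 (0.71 ± 0.3), GOLGB1 (0.7 ± 0.3) and CCDC186 (0.62 ± 0.25), vesicle tethers of the Golgi. GOLGB1 (giantin) read 8.46, 8.52 and 8.92 on the 3α-THP arrays, against 7.64, 7.67 and 8.51 on the P4 arrays, where P4 replicate 3 lay above 3α-THP replicate 1 and level with 3α-THP replicate 2. The median of the list was 0.05, and the 16 others did not pass. Of 27 early endosome tethering genes EEA1 alone passed (median 0.04), and of 13 coiled-coil proteins of the endoplasmic reticulum KTN1 alone passed (median −0.09), with the translocon subunit SEC61B at −0.24 (95% interval −0.41 to −0.06).

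Most centrosome genes had positive values. Of 54 measured, 3 were higher (CCDC88A, LRRCC1 and CCDC18), 5 with the block (AKAP9 and CEP290 added), and 0 lower. Above 0 were 49 values, beside 44.8% of all clusters, with a median of 0.24. This list too was written with earlier results known. The median was 0.18, 0.39 and 0.16 in the pairs of replicates 1, 2 and 3, and it lay between 0.15 and 0.33 when any 1 of the 6 arrays was left out. LRRCC1, a centriolar protein, read 6.07, 6.99 and 6.45 on the 3α-THP arrays, against 5.3, 5.59 and 5.88 on the P4 arrays, a difference of 0.91 ± 0.26. AKAP9, which anchors protein kinase A and nucleates microtubules at the Golgi and centrosome, read 7.22, 7.34 and 7.88 on the 3α-THP arrays, against 6.71, 6.6 and 7.24 on the P4 arrays, and CEP290, of the ciliary transition zone, read 5.12, 5.31 and 5.88 on the 3α-THP arrays, against 4.54, 4.65 and 5.36 on the P4 arrays. Both were above in every pair and overlapped between groups. MNS1, a protein of ciliary doublet microtubules, differed by 0.75 ± 0.27. It was the 1 call in a list of 36 measured genes headed intraflagellar transport, dynein-2 and BBSome. MNS1 is itself a part of none of these, so their own genes held 0 calls.

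The remaining higher genes had mixed roles. SLC7A11, the cystine and glutamate exchanger that feeds glutathione synthesis and is induced by ATF4, read 7.12, 8.72 and 7.92 on the 3α-THP arrays, against 6.85, 7.0 and 7.37 on the P4 arrays. Its difference of 0.85 ± 0.35 was 1.72 in the pair of replicate 2, beside 0.27 and 0.55 in the pairs of replicates 1 and 3, and the other 38 measured genes of the unfolded protein and integrated stress responses did not pass (list median 0.01). SAMD9, an interferon-inducible antiviral factor, differed by 0.72 ± 0.3, whereas IFI6, another interferon-stimulated gene, read 10.42, 9.79 and 10.41 on the 3α-THP arrays, against 10.76, 10.58 and 10.44 on the P4 arrays and did not pass (−0.39, 95% interval −0.75 to −0.02). The interferon list of 44 had a median of −0.05. RB1CC1, a subunit of the autophagy initiation kinase, differed by 0.69 ± 0.24, the 1 call among 35 autophagy genes. PPIG, a prolyl isomerase of splicing speckles, differed by 0.59 ± 0.19, and JMJD1C, a histone demethylase family member, by 0.64 ± 0.23.

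Some genes had clusters that disagreed. ZNF257, a zinc finger gene, had the smallest unadjusted p among the higher calls (0.00139) in a cluster near the lower end of the signal range, at 2.6, 2.51 and 3.19 on the 3α-THP arrays, against 1.77, 2.09 and 2.01 on the P4 arrays. A brighter cluster of the same gene differed by 0.31 (95% interval 0.10 to 0.52) and did not pass. ZEB2, a repressor of epithelial genes, was higher by 0.61 in a cluster that averaged 7.59 on the 3α-THP arrays and 6.98 on the P4 arrays, and its brighter cluster differed by 0.06 (95% interval −0.15 to 0.28). ZEB1, the related repressor, differed by 0.31 (0.03 to 0.6) and did not pass.

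Past the fold and p threshold, few genes were lower with 3α-THP. Without the fold, 454 clusters were lower and 387 higher at an unadjusted limma p under 0.05 in the unpaired fit. The 6 clusters called were lower in each of the 3 pairs, as were 16.6% of all clusters. GJB7, a connexin of gap junctions, read 2.97, 3.13 and 3.28 on the 3α-THP arrays, against 3.91, 3.53 and 3.7 on the P4 arrays, near the lower end of the signal range. The groups did not overlap, as 5.1% of all clusters did in this direction, and the difference was −0.59 ± 0.16 (unadjusted p = 0.00276). The other 5 lower clusters carry identical values for the copies of SNORD3, the U3 small nucleolar RNA that guides the first cuts of ribosomal RNA, and are 1 measurement. They read 12.04, 11.97 and 10.44 on the 3α-THP arrays of replicates 1, 2 and 3, against 12.27, 12.24 and 12.16 on the P4 arrays, so the difference of −0.74 ± 0.30 rested on 3α-THP replicate 3. EPYC, a small leucine-rich proteoglycan of matrix, read 8.42, 6.35 and 7.47 on the 3α-THP arrays, against 8.77, 7.78 and 7.88 on the P4 arrays, a difference of −0.73 that passed with the block (unadjusted p = 0.00176) and not without it (unadjusted p = 0.154).

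Below the fold threshold, FGF1, a fibroblast growth factor, read 6.2, 5.12 and 5.6 on the 3α-THP arrays, against 6.41, 6.18 and 5.91 on the P4 arrays. It was lower in each pair, by −0.52 (95% interval −1.0 to −0.04), with 3α-THP replicate 1 above 2 of the P4 arrays. FABP3, a fatty acid binding protein, was named after its values were seen, as 1 of the 3 lower clusters past the adjusted p on the 6 arrays with GJB7 and the chemokine XCL1. FABP3 read 4.04, 4.09 and 3.97 on the 3α-THP arrays, against 4.55, 4.64 and 4.43 on the P4 arrays, with no overlap and a difference of −0.51 ± 0.12 (adjusted p = 0.0309 in the paired limma fit of 6 arrays, 0.999 unpaired).

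**Figure D3:**
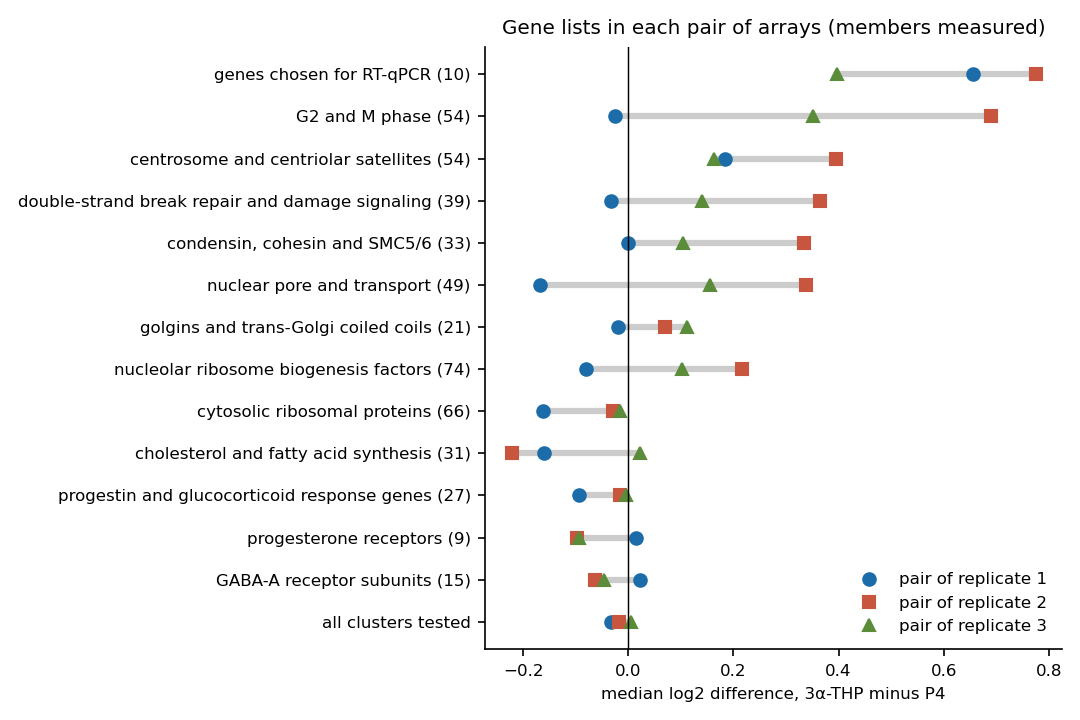
Median log2 difference, 3α-THP minus P4 (x axis), of gene lists (y axis, with the number of measured members) in each pair of arrays with the same replicate number, with grey bars for the range over the 3 pairs. The RT-qPCR genes and the centrosome list lie above 0 in all pairs, the G2 and M list spans −0.03 to 0.69, and the receptor lists lie near the row of all clusters at the bottom.

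The receptors and enzymes through which the 2 steroids are known to act did not pass in either direction. Only 0.25% of all clusters passed, so 0 calls in lists this short says little about their members. Of 9 measured progesterone receptors, nuclear, membrane and PGRMC type, 0 were called. PGR, the nuclear receptor, read 4.1, 3.93 and 3.86 on the 3α-THP arrays, against 4.0, 4.02 and 3.98 on the P4 arrays, a difference of −0.04 (95% interval −0.25 to 0.18). PGRMC2, a heme-binding membrane protein, read 9.06, 8.96 and 9.06 on the 3α-THP arrays, against 9.29, 9.07 and 9.11 on the P4 arrays, all 3 values below all 3 P4 values, a difference of −0.13 (−0.3 to 0.04), and PAQR7, a membrane progesterone receptor, differed by −0.25 (−0.62 to 0.11). SRD5A1, the 5α-reductase of the brain, read 7.89, 7.85 and 7.98 on the 3α-THP arrays, against 7.96, 7.85 and 7.87 on the P4 arrays, a difference of 0.02 (−0.21 to 0.24), and AKR1C2, a 3α-hydroxysteroid dehydrogenase, differed by 0.22 (−0.15 to 0.6). For the 9 receptors the 95% intervals together spanned −0.62 to 0.44, so differences up to those sizes were not excluded by the error of these arrays. PGR lay at the lower end of the range of the genes deleted in U87 (3.95 to 5.61), a level at which a difference may not be measurable. PGR and SRD5A1 were named after their values were seen.

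The responses downstream were likewise without a call, in part at low signal. Beside 0.25% called over all clusters, 0 calls in these lists again says little. Of 15 GABA-A subunits measured, 0 passed and the median was −0.01, with GABRB1 at −0.18 (−0.39 to 0.03). The mean of the list, 4.73 on the 3α-THP arrays and 4.76 on the P4 arrays, lay within the range of the deleted genes. Single subunits averaged between 2.72 and 9.96 over all arrays, so low signal did not hold for every one. Of 27 genes induced by progestins or glucocorticoids in other cells, 0 passed, with a median of −0.03, and STC1, a secreted glycoprotein, read 11.26, 11.34 and 11.29 on the 3α-THP arrays, against 11.49, 11.44 and 11.41 on the P4 arrays. Of 12 other steroid receptors 0 passed. NR3C2, the mineralocorticoid receptor, had the largest value at 0.4 (0.1 to 0.7) and read 6.07, 6.32 and 6.37 on the 3α-THP arrays, against 5.89, 5.56 and 6.12 on the P4 arrays, with 3α-THP replicate 1 below P4 replicate 3. The lists of CREB and C/EBP factors (18 measured), cAMP and CREB targets (16) and the xenobiotic receptor PXR with its targets (12) held 0 calls, with medians of −0.03, −0.02 and −0.01. The PXR list was again dim as a mean, 4.92 on the 3α-THP arrays and 4.87 on the P4 arrays, with members between 2.68 and 8.03 over all arrays. Among the 3 lists CEBPZ, which despite its name acts in the nucleolus, differed by 0.34 (0.03 to 0.64), JUNB, an immediate early factor, by −0.24 (−0.42 to −0.06) and PDE4D, a cAMP phosphodiesterase, by 0.25 (0.06 to 0.43).

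Most of the higher genes had long spans on the genome, a property that the threshold had not used. For 46 of them with a RefSeq span, the median was 73.7 kb, beside 27.0 kb over 17800 protein-coding genes, and 40 of the 46 exceeded that median, with the shortest at 3.81 kb. When the 17800 genes were divided by span into 10 bins of equal size, the bins held 1, 0, 1, 2, 2, 4, 3, 18, 10 and 5 of the higher clusters, shortest first. The peak was in bin 8, between 56.9 and 90.7 kb, and not in the longest. Median differences over all genes of a bin were small and differed by pair. In the pair of replicate 2 they were −0.07 in bin 1 and 0.05 in bin 9, and in pair 1 they were −0.01 and −0.04. Removing a smooth trend of signal with span from each array left 52 calls, of which 51 were among the 53. The part that gene length, transcript length or coiled-coil content plays in the result was not tested.

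**Figure D4:**
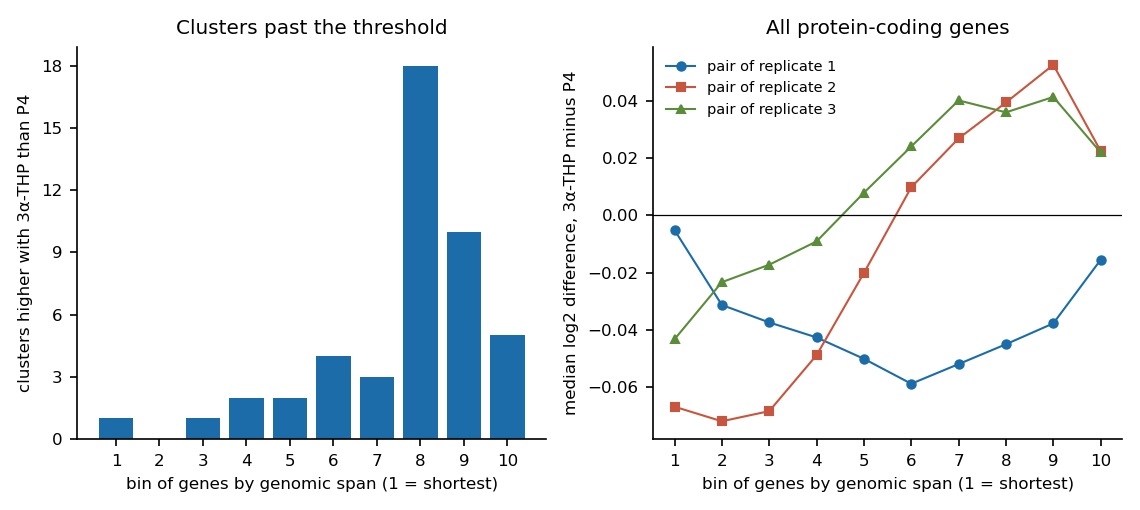
Left, number of clusters higher with 3α-THP than with P4 (y axis) in each of 10 bins of 17800 protein-coding genes by genomic span (x axis, shortest first). Right, median log2 difference, 3α-THP minus P4, of all genes of each bin in each pair of arrays. Bin 8 holds 18 of the 46 clusters, and the medians of the pair of replicate 1 run below 0 in every bin.

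The 47 higher clusters were also read on the other arrays of the series. Their median signal was 7.48, 8.10 and 7.92 on the 3α-THP arrays of replicates 1, 2 and 3, 6.76, 7.08 and 7.40 on the P4 arrays, 7.56, 7.22 and 7.81 on the F arrays, and 6.63, 7.26 and 6.62 on the V arrays. The F values were at a dose of 100 nM and so not at the matched dose. Set against V, the median log2 fold change of the 47 was 0.99 for 3α-THP, 0.80 for F and 0.23 for P4. The V arrays are shared by these values, and the 3α-THP and P4 arrays were already used to choose the clusters. In all 47 the F mean lay above the P4 mean and below the 3α-THP mean. The 3α-THP mean lay above the V mean in all 47 clusters, and the P4 mean lay above it in 44.

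**Figure D5:**
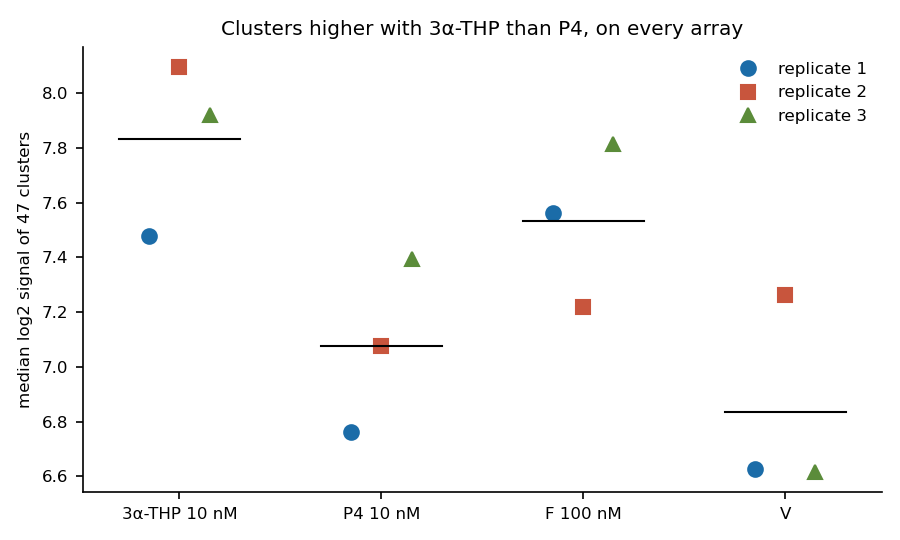
Median log2 signal (y axis) of the 47 clusters higher with 3α-THP than with P4 on each of the 12 arrays (x axis, by treatment), with lines for the mean of 3 arrays. The 3α-THP arrays lie between 7.48 and 8.10 and the P4 arrays between 6.76 and 7.40, F arrays between 7.22 and 7.81 and V arrays between 6.62 and 7.26.

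For KIF20B the means were 6.70 with 3α-THP, 5.35 with P4, 6.18 with F and 5.32 with V. For ESF1 they were 6.71 with 3α-THP, 5.76 with P4, 6.28 with F and 5.45 with V, and for CCDC88A 8.36, 7.42, 8.07 and 7.0 in the same order. GJB7 averaged 3.13 with 3α-THP, 3.72 with P4, 3.46 with F and 3.44 with V. There the 3α-THP mean lay below the V mean and the P4 mean above it.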

How the data were processed

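RNA of 12 U87 cultures was hybridized to Affymetrix Human Gene 1.0 ST arrays. The table deposited by the authors holds 1 log2 signal per transcript cluster and array. Its values were summarized by them with Affymetrix Expression Console 1.4 according to the submitters' notes, while the methods describe quantile normalization in another Affymetrix console, and which step made the table is not given in the sources used here. Gene names came from the platform annotation, and 12083 clusters without one were left out. Of those tested, 19460 carry 1 gene and 1754 several, and 703 equal another cluster on every array. The authors' intensity files were not used here.

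Treatments were compared with limma 3.58.1 in R 4.3.3 (linear model with moderated variances), on all 12 arrays without a block, and again with the replicate number as a block. A cluster was called at a fold over 1.5 and an unadjusted p under 0.05, after the study's methods, and Benjamini-Hochberg adjustment ran over all 21214 clusters. The block was planned beside the unpaired fit. Deviations from treatment means correlated between arrays of the same number (r between 0.132 and 0.631 in 18 pairs of arrays, 0.314 to 0.546 between 3α-THP and P4). The median was −0.245 in 36 pairs of different number. Deviations cancel within each treatment, so this negative median follows in part from the positive values and is not separate evidence of pairing. The paired fit of the 6 arrays had 2 residual degrees of freedom per cluster and a prior of 13. Scripts were tested on simulated data.

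Genes named are the 15 largest positive and 8 largest negative calls, the 8 largest of each sign called with the block alone, clusters past the adjusted p on 12 arrays, the 10 RT-qPCR genes, and in each list the called members and the 2 smallest p, with not every one described. Lists used the brightest cluster of a gene. Members, lists and rules were chosen with earlier results of these data known. Other normalizations, filters, priors, array weights, thresholds and left-out arrays were tried.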

Additional observations from a re-analysis of the deposited data

How the results depend on the processing

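Of the 53 clusters called, with 47 higher and 6 lower, all were called again with the replicate block, where 66 passed (59 and 7), and with a random block, where 61 did. The unpaired fit of the 6 arrays gave 51 calls, 46 of them shared, with 1 lower. Quantile and cyclic loess normalization gave 49 and 52 calls, 46 shared in each, with 1 lower in each. An analysis of variance of the 6 deposited arrays, without moderated variances, gave 17 (16 higher, 1 lower). The methods name an analysis of variance in the authors' own software, which was not rerun here. Clusters of 1 gene gave 1 lower, equal clusters counted once 2 and 1 cluster per gene 1, since the U3 copies then drop out or count once. A fold over 1.3 gave 185 (144 higher, 41 lower) and a fold over 2 gave 3 (3 higher, 0 lower).

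Leaving out 1 array or 1 replicate number gave 25 to 135 calls, 20 to 108 higher and 1 to 27 lower, and 0 past the adjusted p throughout. With the block it gave 53 to 132 calls without 1 replicate number.

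The adjusted p was passed by 0 clusters in every limma fit of 12 arrays that was run and by 78 with the replicate block on the 6 arrays alone. In that paired fit, settings added after seeing the data gave 97 with an intensity trend and 93 with a robust prior, 82 with clusters of 1 gene, 71 with the length trend removed, 0 with quantile normalization, 0 with cyclic loess normalization, 0 with V added, 0 with F added, 0 with all 12 arrays, 0 without the block, and 30 to 156 without 1 replicate number. The cause was not tested.

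No called gene among those named changed sign except PAX8-AS1, called with the block, which ran between −0.0728 without 3α-THP replicate 2 and 1.39 without 3α-THP replicate 1. Of the named values that were not called, 6 changed sign when arrays were left out, MKI67 (−0.183 to 0.678), TOP2A (−0.0111 to 0.879), CCNB1 (−0.0111 to 0.861), PGR (−0.109 to 0.0137), SRD5A1 (−0.0322 to 0.0576) and the brighter cluster of ZEB2 (−0.00318 to 0.126). With 3 arrays per treatment, differences the size of those between replicates could not be resolved.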

Other observations

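Lists without a call nevertheless differed in how their values lay around 0, where 44.8% of all clusters were above 0. Of 31 measured genes of cholesterol and fatty acid synthesis, 27 were below 0, with a median of −0.12 (−0.10 to −0.12 under other scalings and −0.19 to −0.07 without 1 replicate number), and 0 passed. FADS2, a fatty acid desaturase, read 7.70, 7.19 and 7.38 on the 3α-THP arrays of replicates 1, 2 and 3, against 7.76, 7.82 and 7.67 on the P4 arrays. SREBF2, the transcription factor that drives sterol genes, read 8.95, 8.68 and 8.92 on the 3α-THP arrays, against 9.13, 9.10 and 9.04 on the P4 arrays. HMGCS1 and SQLE, enzymes of the pathway named after their values were seen, differed by −0.19 (95% interval −0.61 to 0.24) and −0.12 (−0.49 to 0.26). The list median was 0.02 in the pair of replicate 3, beside −0.16 and −0.22 in the pairs of replicates 1 and 2.

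Of 192 small nucleolar and Cajal body RNAs measured by clusters with 1 gene, 132 were below 0, with a median of −0.08 and 0 calls, where 44.8% of all clusters were above 0. Clusters with several genes were outside this list. Among those, the SNORD3 clusters were called lower (−0.74) and the cluster of SNORA1 and TAF1D higher (0.60). The median was −0.0552 to −0.0652 under other scalings, −0.029 without 3α-THP replicate 2 and −0.0288 without replicate number 1. SCARNA17, a Cajal body RNA, read 7.19, 6.80 and 6.93 on the 3α-THP arrays of replicates 1, 2 and 3, against 7.46, 7.39 and 7.32 on the P4 arrays, with no overlap, and a dimmer cluster of it differed by −0.26. SNORD38B differed by −0.32. Of 66 cytosolic ribosomal proteins 53 were below 0 and 0 passed, with a median of −0.05 that was −0.0102 to −0.0159 under other scalings and −0.003 without replicate number 1. Of 80 nuclear-encoded respiratory chain subunits 55 were below 0 and 0 passed, with a median of −0.04 that was −0.00863 with the trend with gene length removed and 0.00659 without replicate number 1. Of 42 genes of matrix and mesenchymal state 35 were below 0 and 0 passed, with a median of −0.06 that was −0.0227 after quantile normalization and 0.0221 without 3α-THP replicate 2.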
